A study of Mus musculus with 6 samples.

Results

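The 36 genes described here encode aminoacyl-tRNA synthetases, 20 of the cytosol and 16 of the mitochondrion, among the 23420 genes counted. They were taken by symbol, and a symbol ending in 2 placed a gene in the mitochondrial class. All 36 had a row in the count tables, all 36 had reads in each of the 6 libraries, against 9524 of all genes, and all 36 entered the test, which took 11925 genes. The libraries came from Meta4 organoids, a mouse dysplastic epithelial organoid line, from which 2 subpopulations of dysplastic stem cells, labelled DP-DSCs and TP-DSCs, had been isolated by fluorescence-activated sorting. There were 3 libraries of each, described as independent samples, and they all came from this 1 line. The labels name no genotype, treatment, age or time point for either subpopulation, and do not spell out DP and TP. The question asked was how the transcriptomes of the 2 subpopulations compare.

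Aminoacyl-tRNA synthetases join each amino acid to its transfer RNA, the step that fixes the genetic code before the ribosome reads it. Animal cells carry separate nuclear genes for most cytosolic and mitochondrial enzymes, with Gars and Kars supplying both compartments from a single gene. Some cytosolic enzymes, with the scaffold proteins Aimp1, Aimp2 and Eef1e1, sit in a large multi-synthetase complex. When amino acids run short, the kinase Gcn2 (Eif2ak4) senses uncharged transfer RNA and raises translation of the factor Atf4, which binds a composite C/EBP-ATF element in the promoters of amino acid genes, several cytosolic synthetases among them.

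The promoters are shown first because the element was matched in cytosolic members and in no mitochondrial one, and sequence had no part in the choice of genes. RefSeq promoters (GRCm38.p6, 250 bases before the transcription start to 50 bases after it) matched 26 of the members, 12 cytosolic and 14 mitochondrial. Both strands were searched for TGATGNAA and for its core form TGATGCAA, every match to which is also a match to the first. TGATGNAA was present in 5 of the 12 cytosolic promoters (41.7%), in 0 of the 14 mitochondrial promoters and in 1219 of 27025 promoters of all genes (4.51%). TGATGCAA was present in 4 of the 12 cytosolic promoters (33.3%), in 0 of the 14 mitochondrial ones and in 279 of all promoters (1.03%). These are matches of letters, and no binding was measured. The 4 windows with the core form follow, 5′ to 3′ in the direction of the gene, with the matches in capitals. In these lines a match on the strand opposite to the gene reads TTGCATCA, or TTTCATCA for TGATGAAA.
Yars, chr4:129189653-129189952, plus strand: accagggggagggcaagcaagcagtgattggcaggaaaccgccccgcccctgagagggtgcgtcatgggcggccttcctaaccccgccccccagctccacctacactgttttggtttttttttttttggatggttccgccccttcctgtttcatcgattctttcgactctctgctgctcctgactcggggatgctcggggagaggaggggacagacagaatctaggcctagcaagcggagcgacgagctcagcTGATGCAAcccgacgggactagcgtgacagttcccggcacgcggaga
Tars, chr15:11399609-11399908, minus strand: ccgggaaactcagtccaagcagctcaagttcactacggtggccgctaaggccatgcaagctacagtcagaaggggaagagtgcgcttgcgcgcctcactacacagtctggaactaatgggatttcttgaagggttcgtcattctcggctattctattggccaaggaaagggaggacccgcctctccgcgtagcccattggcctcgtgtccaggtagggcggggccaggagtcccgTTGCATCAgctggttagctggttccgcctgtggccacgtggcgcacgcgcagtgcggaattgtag
Iars, chr13:49681880-49682179, plus strand: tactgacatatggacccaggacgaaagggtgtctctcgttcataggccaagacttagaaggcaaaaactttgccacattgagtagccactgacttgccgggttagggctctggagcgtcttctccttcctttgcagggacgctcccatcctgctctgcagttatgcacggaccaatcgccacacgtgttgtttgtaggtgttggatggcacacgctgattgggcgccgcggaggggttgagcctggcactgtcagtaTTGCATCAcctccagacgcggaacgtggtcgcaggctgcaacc
Aars, chr8:111033592-111033891, plus strand: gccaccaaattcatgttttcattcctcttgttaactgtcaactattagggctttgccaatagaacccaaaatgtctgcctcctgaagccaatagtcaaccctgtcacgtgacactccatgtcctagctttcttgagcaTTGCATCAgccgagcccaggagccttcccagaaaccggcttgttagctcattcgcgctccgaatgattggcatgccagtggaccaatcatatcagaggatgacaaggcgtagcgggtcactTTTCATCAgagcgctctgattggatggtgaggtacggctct
The match began 3 bases after the start in Yars, 15 bases before it in Tars, 7 bases after it in Iars and 112 bases before it in Aars. Aars held a second match, TGATGAAA, at 9 bases after the start. Gars, the fifth promoter, held TGATGAAA at 30 bases before the start. The RefSeq start lies inside the GENCODE gene span for each of the 4 genes printed. For Aars the whole window lies inside that span, which begins at chr8:111033144, so the RefSeq and GENCODE starts differ. Which start these cells used was not tested.

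Library depth was 17015581 to 32671039 reads in genes. DP-DSC libraries had reads for 12504 to 14434 genes and TP-DSC libraries for 10571 to 10982, so the TP-DSC libraries were the ones with fewer genes detected. Reads outside genes made up 14.1 to 15.4% of reads in DP-DSCs and 16.2 to 20.3% in TP-DSCs. The 8 epithelial and sort markers (Epcam, Krt8, Krt18, Krt19, Cdh1, Prom1, Alcam and Cd44) were all detected. They summed to 9792 to 11309 CPM (the count scaled to the library's reads in genes) in DP-DSCs and 9010 to 10486 in TP-DSCs. The level was lower in TP-DSCs for 7 of the 8 and higher for 1. Cdh1 averaged 1083 ± 275 CPM in DP-DSCs against 747 ± 60.6 CPM in TP-DSCs (SD, n = 3 libraries each; edgeR adjusted p = 0.744). The 6 fibroblast markers summed to 0.704 to 3.19 CPM in DP-DSCs against 0 to 2.90 in TP-DSCs, with Col1a2, Col3a1, Dcn and Lum at 0 throughout. Immune markers (6 genes, Cd52 and Cd3e at 0) reached at most 0.644 CPM, endothelial markers (4 genes, Pecam1 at 0) at most 4.995 and muscle and nerve markers (6 genes, Sox10 and Elavl4 at 0) at most 7.13. The library names carry a number, here called the submission number. It was 3840 for replicate 1 of both groups and 4140 for replicates 2 and 3 of both groups. The labels do not say what that number marks, and differences within each submission are given for the members described library by library. The sign was the same in both submissions for 10 of the 20 cytosolic and 9 of the 16 mitochondrial members. No share over all tested genes stands beside these counts, and the 3840 difference is between 1 library of each group. In bulk RNA of this kind, fewer cells of a type and less RNA per cell cannot be told apart.

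No synthetase gene passed the test between TP-DSCs and DP-DSCs. With edgeR's quasi-likelihood test and Benjamini-Hochberg adjustment over all genes, 0 of the 36 members were called, and 0 of all 11925 genes tested (0%). Without adjustment, 1 member (Yars) had p below 0.05, against 728 genes (6.1%). The tool DESeq2 called 93 genes (0.804%) and limma-voom called 0, and neither called a member, with 1 member each below 0.05 unadjusted. In either direction, 2 members had groups that did not overlap (Yars and Fars2), against 12.9% of tested genes. Log2 fold changes below are TP-DSCs over DP-DSCs, so a positive value means a higher level in TP-DSCs.

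The cytosolic class lay close to 0. The median log2 fold change of the 20 genes was -0.05, with 8 above 0, 12 below 0 and a range from -0.64 to 0.25. Over all tested genes the median was -0.02, with 48.2% above 0 and 51.8% below. Within submission 3840 the median difference was 0.05, and within submission 4140 it was -0.08. Left out in turn, single libraries moved the cytosolic median between -0.10 and 0.02. For 19 of the 20 genes the 95% interval of the fold change stayed inside 2-fold in both directions, against 3893 of all tested genes (32.6%). The exception was Yars. The cytosolic genes were at 50.7 CPM or more in every library, and the share of 32.6% was not restricted to genes of like level. These intervals limit the size of any difference and do not show equality.

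The mitochondrial class had a higher median and a wider range. The median of the 16 genes was 0.32, with 11 above 0 and a range from -0.53 to 0.80. That median rested on 1 library: without TP-DSC replicate 2 it was -0.02, with 7 genes above 0. Leaving out TP-DSC replicate 1 gave 0.35. With the submission number as a block it was 0.19, with limma-voom 0.17 and without DP-DSC replicate 1 it was 0.18. Within submission 3840 the median difference was 0.11, and within 4140 it was 0.30. The 95% interval stayed inside 2-fold for 2 of the 16 genes, Iars2 and Tars2. The median half-width of the interval was 1.06 on the log2 scale, against 0.48 for the cytosolic genes, so fold changes of mitochondrial enzymes were known less closely.

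**Figure D1:**
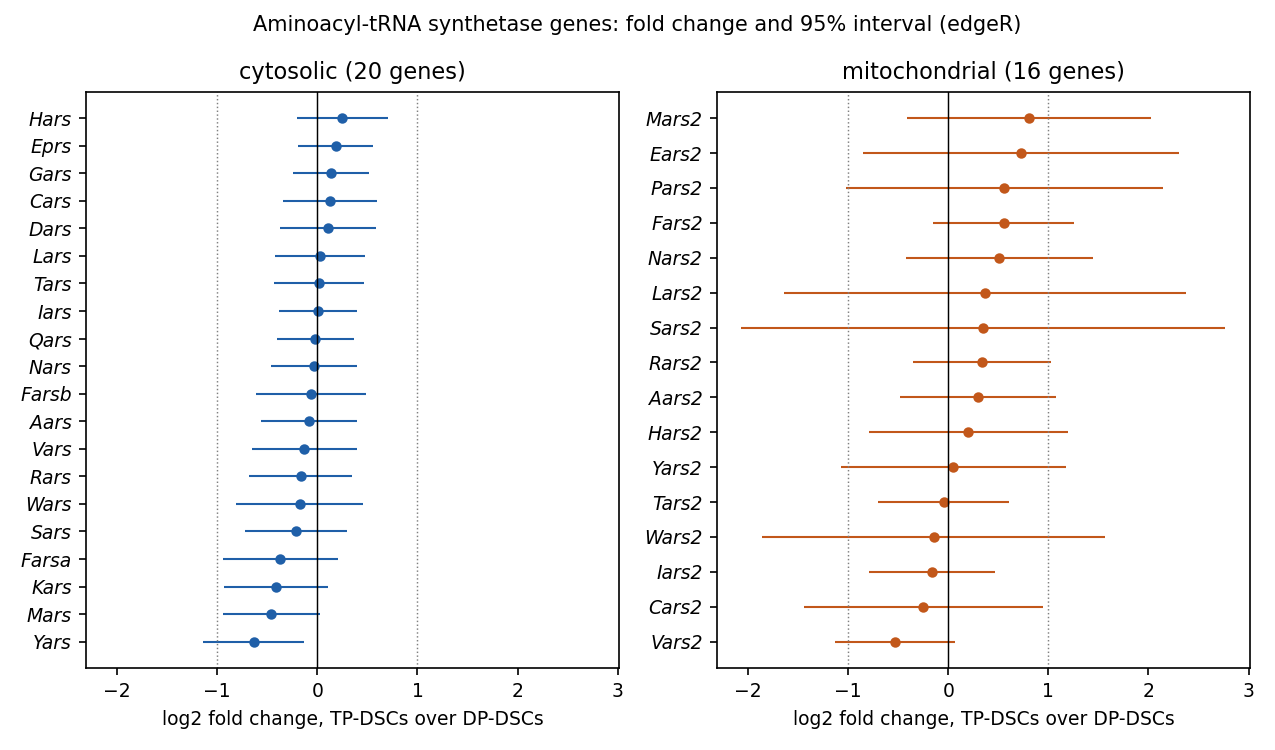
Log2 fold change (x axis, TP-DSCs over DP-DSCs) of the 20 cytosolic and 16 mitochondrial synthetase genes, with 95% intervals from edgeR as horizontal lines and 2-fold either way as dotted lines. Among the cytosolic genes, Yars at -0.64 is the only one whose interval passes a dotted line, while only Iars2 and Tars2 of the mitochondrial genes stay between them.

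Among the cytosolic enzymes outside the multi-synthetase complex, Yars, the tyrosyl-tRNA synthetase (chr4:129189760-129219607, plus strand, GRCm38), differed most. It was at 112, 104 and 110 CPM in DP-DSC replicates 1, 2 and 3, and at 80.8, 63.6 and 66.2 CPM in TP-DSC replicates 1, 2 and 3. Every TP-DSC library was below every DP-DSC library. It was the 1 cytosolic gene of 20 with groups that did not overlap in this direction, against 8.88% of all tested genes, and 0 cytosolic genes were separated upward, against 4.03%. The log2 fold change was -0.64 ± 0.21 (SE, n = 3 libraries per group; edgeR adjusted p = 0.475), with a 95% interval from -1.14 to -0.13. The difference was -0.44 within submission 3840 and -0.75 within 4140. Over the alternative fits the log2 fold change of Yars ran from -0.83 to -0.54, with an adjusted p of 0.176 or more in each.

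Farsa, the catalytic subunit of the cytosolic phenylalanyl-tRNA synthetase, was at 71.3, 102 and 84.4 CPM in DP-DSCs and at 72.4, 50.7 and 76.7 CPM in TP-DSCs. The groups overlapped, and the log2 fold change was -0.37 ± 0.24 (SE, n = 3 per group; edgeR adjusted p = 0.999). It was 0.05 within submission 3840 and -0.61 within 4140, and -0.19 without TP-DSC replicate 2. Farsb, the partner subunit, averaged 103 ± 6.32 CPM in DP-DSCs against 98.7 ± 21.2 CPM in TP-DSCs (SD, n = 3 libraries each). Hars, the histidyl-tRNA synthetase, had the highest fold change of the class and was at 86.9, 124 and 95.4 CPM in DP-DSCs and at 111, 144 and 111 CPM in TP-DSCs. Its log2 fold change was 0.25 ± 0.19 (SE; edgeR adjusted p = 0.999), with 0.39 within submission 3840 and 0.18 within 4140, and its groups overlapped.

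The most abundant of these enzymes per unit length were Nars and Gars. Nars, the asparaginyl-tRNA synthetase, was at 379, 486 and 409 CPM in DP-DSCs and at 397, 489 and 368 CPM in TP-DSCs, giving a log2 fold change of -0.03 ± 0.18 (SE). Gars, the glycyl-tRNA synthetase of both compartments, was at 246, 313 and 246 CPM in DP-DSCs and at 280, 288 and 322 CPM in TP-DSCs, giving a log2 fold change of 0.13 ± 0.16 (SE). The DP-DSC and TP-DSC libraries of both genes were interleaved. Nars differed by 0.09 within submission 3840 and -0.11 within 4140, Gars by 0.21 and 0.10. Tars, the threonyl-tRNA synthetase, whose promoter is printed above, was at 139, 189 and 137 CPM in DP-DSCs and at 152, 181 and 138 CPM in TP-DSCs. Its log2 fold change of 0.01 ± 0.19 (SE) was on the other side of 0 under some alternatives, and the difference was 0.16 within submission 3840 and -0.06 within 4140. The remaining free-standing enzymes, Aars, Cars, Sars, Vars and Wars, had log2 fold changes from -0.21 (Sars, the seryl-tRNA synthetase) to 0.12 (Cars, the cysteinyl-tRNA synthetase), all with adjusted p = 0.999 in edgeR. Aars overlaps Ddx19b, Farsb overlaps Sgpp2 and Wars overlaps Wdr25 in the annotation, so reads of these genes may have been split or lost in counting. For the 12 free-standing genes together the median was -0.07, with 4 above 0.

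The 8 enzymes of the multi-synthetase complex had a median log2 fold change of -0.01, with 4 above 0 and 4 below. Mars, the methionyl-tRNA synthetase that also charges the initiator transfer RNA, was at 157, 166 and 135 CPM in DP-DSCs and at 96.2, 96.3 and 146 CPM in TP-DSCs. TP-DSC replicates 1 and 2 were below all DP-DSC libraries and replicate 3 was among them. This gave a log2 fold change of -0.46 ± 0.21 (SE; edgeR adjusted p = 0.903), with -0.68 within submission 3840 and -0.37 within 4140. Without TP-DSC replicate 3 it was -0.65 and the adjusted p was 0.259.

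Kars, the lysyl-tRNA synthetase of both compartments, showed the same kind of split with another library standing apart. It was at 241, 267 and 284 CPM in DP-DSCs and at 165, 271 and 170 CPM in TP-DSCs, where replicate 2 was at the DP-DSC level. Its log2 fold change was -0.41 ± 0.22 (SE; edgeR adjusted p = 0.999), with -0.52 within submission 3840 and -0.40 within 4140. Without TP-DSC replicate 2 it was -0.65 and the adjusted p was 0.267. Eprs, the fused glutamyl-prolyl-tRNA synthetase, was at 223, 261 and 221 CPM in DP-DSCs and at 259, 296 and 252 CPM in TP-DSCs. Its groups overlapped, and its log2 fold change was 0.18 ± 0.16 (SE; edgeR adjusted p = 0.999), with 0.24 within submission 3840 and 0.15 within 4140. Qars, the glutaminyl-tRNA synthetase, which has no separate mitochondrial counterpart among the members, varied least in TP-DSCs, with a mean of 272 CPM in both groups and coefficients of variation of 8.88% (DP-DSCs) and 4.05% (TP-DSCs). Its 95% interval ran from -0.41 to 0.37 on the log2 scale. The other enzymes of the complex, Dars, Iars, Lars and Rars, lay between -0.17 and 0.10, all with adjusted p = 0.999 in edgeR.

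The 3 non-enzymatic proteins of the complex were all below 0, with a median log2 fold change of -0.34 (-0.13 within submission 3840 and -0.50 within 4140). Aimp2, its core scaffold, was at 36.9, 57.3 and 44.8 CPM in DP-DSCs and at 36.0, 42.7 and 24.7 CPM in TP-DSCs, giving a log2 fold change of -0.43 ± 0.31 (SE; edgeR adjusted p = 0.999). Aimp1 was at -0.28 ± 0.26 and Eef1e1 at -0.34 ± 0.32. All 3 had overlapping groups. By catalytic class, the 9 cytosolic class I enzymes had a median of -0.13 with 3 above 0, and the 10 class II enzymes a median of -0.05 with 4 above 0; Eprs, which holds an enzyme of each class, was left out of both.

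Among the mitochondrial enzymes, Vars2, the valyl-tRNA synthetase, had the smallest p and the lowest fold change. It was at 136, 111 and 89.2 CPM in DP-DSCs and at 57.6, 79.2 and 101 CPM in TP-DSCs, so that TP-DSC replicate 3 lay above DP-DSC replicate 3. The log2 fold change was -0.53 ± 0.26 (SE, n = 3 per group; edgeR adjusted p = 0.977). The difference was -1.21 within submission 3840 and -0.19 within 4140.

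Fars2, the mitochondrial phenylalanyl-tRNA synthetase, which works as a single chain, was at 29.5, 28.0 and 33.8 CPM in DP-DSCs and at 53.9, 37.7 and 43.1 CPM in TP-DSCs. All TP-DSC libraries were above all DP-DSC libraries, both as CPM and after TMM scaling of the libraries. The log2 fold change was 0.56 ± 0.30 (SE; edgeR adjusted p = 0.999), with 0.90 within submission 3840 and 0.35 within 4140. It was the 1 mitochondrial gene of 16 separated upward after scaling, against 4.03% of tested genes. As unscaled CPM, 4 of 16 were separated upward (Fars2, Nars2, Rars2 and Aars2), against 3.87% of tested genes, and 0 were separated downward, against 8.56%. The 3 that scaling removed were separated by small gaps.

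Nars2, the asparaginyl enzyme, was at 26.0, 14.998 and 21.2 CPM in DP-DSCs and at 26.7, 27.0 and 37.2 CPM in TP-DSCs, giving a log2 fold change of 0.51 ± 0.40 (SE; edgeR adjusted p = 0.999). The difference of Nars2 was 0.07 within submission 3840 and 0.79 within 4140, and without DP-DSC replicate 2 the log2 fold change was 0.29. Rars2, the arginyl enzyme, was at 30.6, 29.8 and 31.1 CPM in DP-DSCs and at 33.0, 51.1 and 33.4 CPM in TP-DSCs, giving a log2 fold change of 0.34 ± 0.30 (SE). Its DP-DSC libraries were nearly level, and without TP-DSC replicate 2 its log2 fold change was 0.13. Within submission 3840 it differed by 0.14 and within 4140 by 0.40. Rars2 overlaps Orc3 in the annotation. Aars2, the alanyl enzyme, was at 24.9, 24.4 and 23.3 CPM in DP-DSCs and at 31.5, 25.9 and 32.7 CPM in TP-DSCs, giving a log2 fold change of 0.30 ± 0.33 (SE; edgeR adjusted p = 0.999), with 0.37 within submission 3840 and 0.25 within 4140.

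Mars2, the methionyl enzyme, had the highest fold change of all 36 members, from low counts. It was at 15.3, 11.7 and 11.7 CPM in DP-DSCs and at 22.0, 31.9 and 14.7 CPM in TP-DSCs. Replicate 3 of the TP-DSCs lay below replicate 1 of the DP-DSCs, so the groups overlapped. That gave a log2 fold change of 0.80 ± 0.52 (SE; edgeR adjusted p = 0.999), and without TP-DSC replicate 2 it was 0.53. Mars2 differed by 0.55 within submission 3840 and 0.85 within 4140. Ears2, the glutamyl enzyme, was at 16.7, 13.7 and 16.4 CPM in DP-DSCs and at 6.13, 43.3 and 31.6 CPM in TP-DSCs. Its TP-DSC libraries lay on both sides of the DP-DSC libraries, with a difference of -1.41 within submission 3840 and 1.26 within 4140. The pooled log2 fold change of 0.73 ± 0.68 (SE; edgeR adjusted p = 0.999) was 0.22 without TP-DSC replicate 2 and 1.17 without TP-DSC replicate 1.

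**Figure D2:**
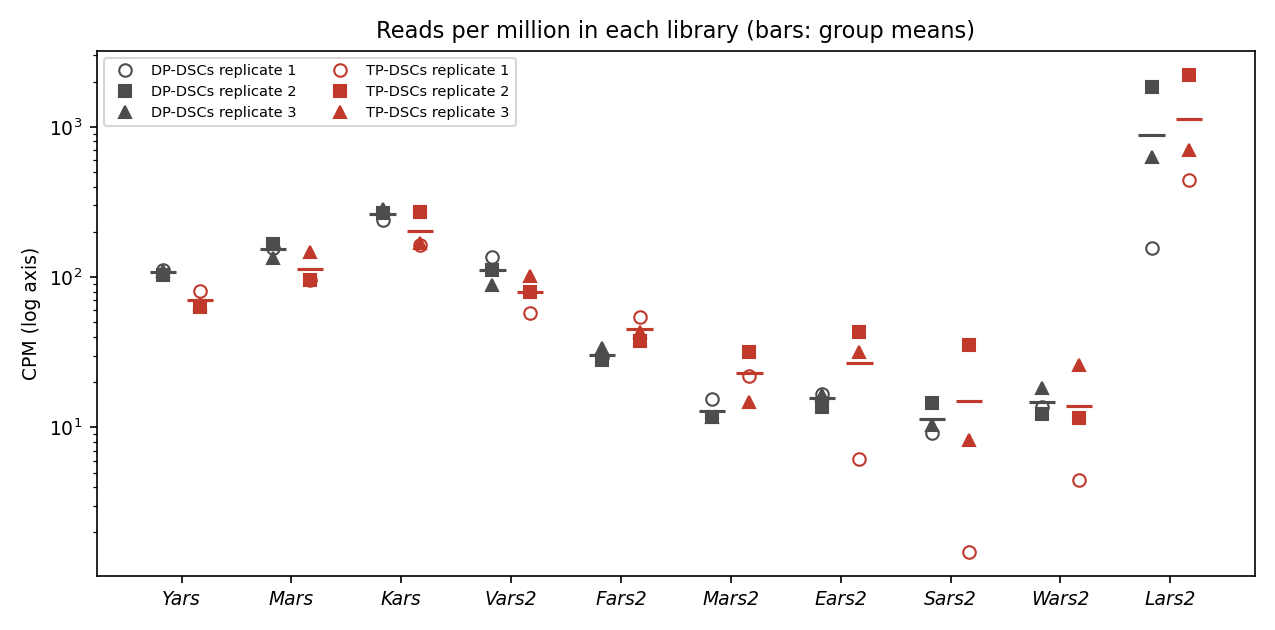
CPM on a log axis for 10 of the synthetase genes, with 1 symbol per library (DP-DSCs grey, TP-DSCs red, replicates by shape) and bars at the group means. The 3 TP-DSC points of Yars lie below its DP-DSC points, those of Fars2 lie above, and those of Ears2, Sars2 and Wars2 spread to both sides of the DP-DSC points.

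Mitochondrial genes varied more between TP-DSC libraries than cytosolic genes did. None of the 20 cytosolic genes had TP-DSC libraries more than 2-fold apart, and the widest was Cars at 1.71-fold, whereas 9 of 16 mitochondrial genes did, against 55.1% of tested genes with reads in both groups. Among the DP-DSC libraries it was 0 cytosolic genes and 1 mitochondrial gene, Lars2, against 26.5% of tested genes. The median coefficient of variation of the cytosolic genes was 11.6% in DP-DSCs and 17.02% in TP-DSCs, that of the mitochondrial genes 19.0 and 37.3%, and that of all tested genes 22.2 and 39.2%. The mitochondrial genes thus lay near the level of genes in general, and the cytosolic genes below it. The coefficient was higher in TP-DSCs for 12 of 20 cytosolic genes, for 14 of 16 mitochondrial genes and for 76.5% of tested genes. Mitochondrial genes were also counted less deeply, with as few as 37 reads in a library against 863 or more for a cytosolic gene; the part of read depth in the spread was not tested.

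Sars2, the seryl enzyme, varied most. It was at 9.11, 14.5 and 10.4 CPM in DP-DSCs and at 1.48, 35.3 and 8.24 CPM in TP-DSCs, a 23.8-fold range within 1 group. The lowest value was 37 reads in TP-DSC replicate 1, the fewest of any member in any library. Its log2 fold change was 0.35 ± 1.03 (SE), -2.54 within submission 3840 and 0.44 within 4140. Wars2, the tryptophanyl enzyme, was at 13.7, 12.2 and 18.3 CPM in DP-DSCs and at 4.45, 11.5 and 25.8 CPM in TP-DSCs. Like Sars2 and Ears2, it was lowest in TP-DSC replicate 1, but its highest library was replicate 3. Its difference was -1.58 within submission 3840 and 0.16 within 4140. Hars2 and Yars2, the histidyl and tyrosyl enzymes, had TP-DSC libraries 3.14-fold and 3.40-fold apart, and Hars2 overlaps Hars in the annotation. Across the 16 mitochondrial genes, the highest library was TP-DSC replicate 2 for 7 genes, TP-DSC replicate 3 for 5, TP-DSC replicate 1 for 3 and DP-DSC replicate 1 for 1. The lowest library was TP-DSC replicate 1 for 6 genes, DP-DSC replicate 2 for 4, TP-DSC replicate 3 for 3, DP-DSC replicate 1 for 2 and DP-DSC replicate 3 for 1.

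**Figure D3:**
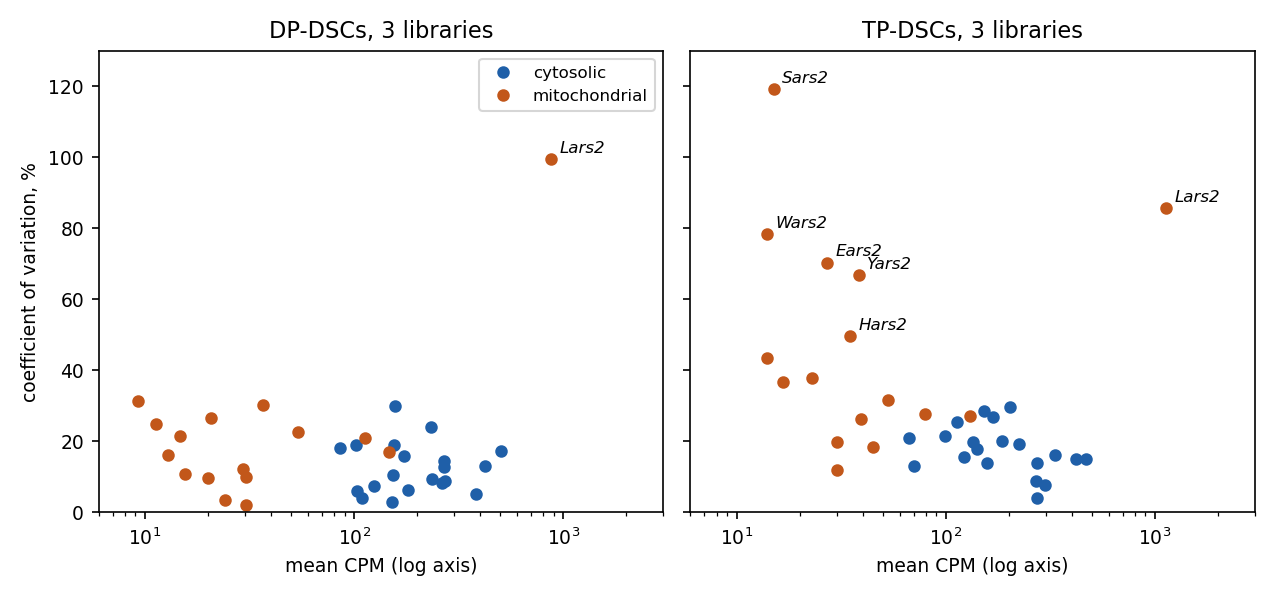
Coefficient of variation over the 3 libraries of a group (y axis, percent) against mean CPM (x axis, log scale) for DP-DSCs and TP-DSCs, with cytosolic genes in blue and mitochondrial genes in orange. In TP-DSCs the mitochondrial genes spread up to Sars2 at 119%, while the cytosolic genes stay at or below 29.6% (Kars).

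The other mitochondrial enzymes had log2 fold changes near 0 or wide errors. Iars2, the isoleucyl enzyme, was at 149, 171 and 121 CPM in DP-DSCs and at 171, 111 and 109 CPM in TP-DSCs, giving a log2 fold change of -0.16 ± 0.27 (SE), with 0.23 within submission 3840 and -0.42 within 4140. It overlaps Rab3gap2 in the annotation. Tars2, the threonyl enzyme, was at -0.05 ± 0.28, and Cars2, the cysteinyl enzyme, at -0.25 ± 0.51. Pars2, the prolyl enzyme, averaged 9.30 ± 2.92 CPM in DP-DSCs against 13.9 ± 6.06 CPM in TP-DSCs (SD, n = 3 libraries each), and its log2 fold change of 0.56 was 0.21 without TP-DSC replicate 3. All 4 had adjusted p = 0.999 in edgeR.

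Lars2, the mitochondrial leucyl-tRNA synthetase (chr9:123366927-123462666, plus strand, GRCm38), stood apart by its level. It was at 156, 1846 and 629 CPM in DP-DSCs and at 445, 2230 and 701 CPM in TP-DSCs, the highest and most scattered member in DP-DSCs. Replicate 2 was the highest library and replicate 1 the lowest in both groups. Lars2 had a log2 fold change of 0.37 ± 0.86 (SE; edgeR adjusted p = 0.999), with a 95% interval from -1.64 to 2.37. Without TP-DSC replicate 2 it was -0.56, and without DP-DSC replicate 2 it was 1.43. The difference was 1.54 within submission 3840 and 0.18 within 4140. Lars2 alone made up 21.4 to 77.4% of the summed CPM of the 16 mitochondrial genes. Rn45s, the gene of the ribosomal RNA precursor, was at 1512, 13587 and 9063 CPM in the same DP-DSC libraries. It was at 9961, 10467 and 9437 CPM in the TP-DSC libraries. In DP-DSCs both genes were lowest in replicate 1 and highest in replicate 2. In TP-DSCs both were highest in replicate 2, but Rn45s was lowest in replicate 3 and Lars2 in replicate 1. The part of Rn45s in the Lars2 values was not tested.

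Summed over the class, the cytosolic enzymes took nearly the same share of reads in both subpopulations. Their CPM added up to 4344 ± 265 in DP-DSCs against 4161 ± 142 in TP-DSCs (SD, n = 3 each), or 0.400 to 0.465% of reads in genes, and the groups overlapped. The mitochondrial sum was 1446 ± 903 in DP-DSCs against 1715 ± 1025 in TP-DSCs. Without Lars2, an exclusion chosen after the values were seen, it was 569 ± 48.6 and 590 ± 67.3. The ratio of the cytosolic to the mitochondrial sum without Lars2 was 7.31, 7.56 and 8.09 in DP-DSCs and 7.70, 6.49 and 7.10 in TP-DSCs, where TP-DSC replicate 1 lay among the DP-DSC libraries. With 3 libraries against 3 an exact two-sided permutation test cannot give a p below 0.1.

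**Figure D4:**
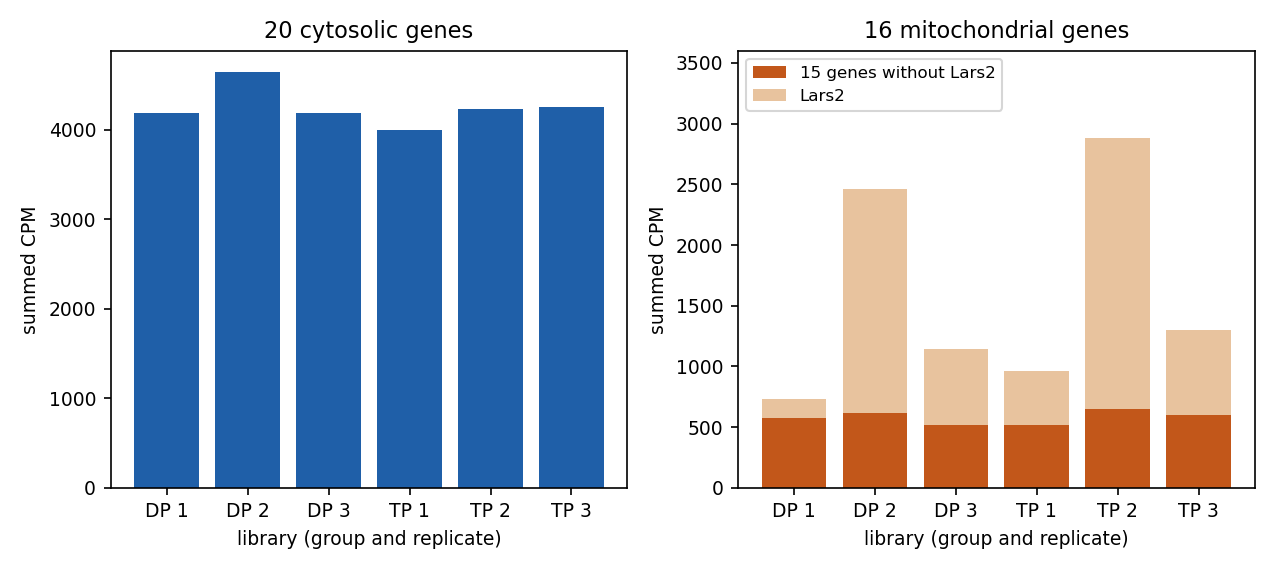
Summed CPM (y axis) of the 20 cytosolic genes and of the 16 mitochondrial genes in each library, with Lars2 stacked in a lighter shade. The cytosolic bars stay between 3997 and 4651 CPM and the 15 mitochondrial genes without Lars2 between 518 and 652 CPM, while Lars2 runs from 156 to 2230 CPM.

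Levels of different genes were compared as CPM per kilobase of the longest coding transcript. Averaged over the 6 libraries, the cytosolic genes ran from 30.7 (Yars) and 38.98 (Tars) to 119 (Gars) and 153 (Nars) CPM per kb. Aars at 39.7 was level with Tars, and Vars at 117 with Gars. The mitochondrial genes ran from 1.58 (Mars2) and 3.25 (Wars2) to 25.3 (Iars2) and 257 (Lars2). Every cytosolic gene was thus above every mitochondrial gene but Lars2. The value of Mars2 depends on its gene model, a single exon of 11294 bases in GENCODE. Over the RefSeq length of 2882 bases it was 6.21. The ratio of the median cytosolic to the median mitochondrial level was 6.14, 5.60 and 5.14 in DP-DSCs and 5.77, 3.17 and 5.61 in TP-DSCs. It was lowest in TP-DSC replicate 2, the library in which 7 mitochondrial genes were highest, and the groups overlapped.

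The members form 17 pairs of a cytosolic and a mitochondrial gene for the same amino acid, counting Eprs with both Ears2 and Pars2 and Fars2 with both Farsa and Farsb. The mitochondrial log2 fold change was above the cytosolic one in 12 pairs and below it in 5. The ratio of the 2 genes within a library does not depend on the scaling of libraries. In 3 pairs every TP-DSC library had a lower cytosolic-to-mitochondrial ratio than every DP-DSC library, and in 0 pairs a higher one. The same count was not made for other pairs of genes, so it has no background value, and 2 of the 3 pairs share Fars2. For phenylalanine, the ratio of Farsa to Fars2 per kb was 3.32 ± 0.81 in DP-DSCs and 1.73 ± 0.29 in TP-DSCs (SD, n = 3 each), and that of Farsb to Fars2 was 3.57 ± 0.55 and 2.32 ± 0.53. For methionine, the ratio of Mars to Mars2 was 45.7 ± 7.75 in DP-DSCs against 22.0 ± 13.9 in TP-DSCs. These values use the GENCODE length of Mars2 and would be lower over its RefSeq length of 2882 bases. The methionine separation was narrow. Mars and Mars2 were at 157 and 15.3 CPM in DP-DSC replicate 1 and at 146 and 14.7 CPM in TP-DSC replicate 3. The log2 fold changes differed by 0.92, 0.62 and 1.26 in these 3 pairs, in favour of the mitochondrial gene.

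The other pairs had overlapping ratios. Mitochondrial minus cytosolic, the log2 fold changes differed by 0.69 for tyrosine (Yars2 and Yars), 0.56 for serine, 0.55 for asparagine, 0.54 for glutamate (Ears2 and Eprs), 0.50 for arginine, 0.38 for alanine, 0.38 for proline (Pars2 and Eprs), 0.34 for leucine and 0.03 for tryptophan. The difference was -0.05 for histidine, -0.06 for threonine, -0.17 for isoleucine, -0.37 for cysteine and -0.40 for valine. Several signs rested on a single library. Without TP-DSC replicate 2, Yars2 was at -0.59 against -0.54 for Yars and Sars2 at -1.25 against -0.17 for Sars. Lars2 was then at -0.56 against 0.17 for Lars. Threonine turned the other way, with Tars2 at -0.045 against -0.067 for Tars. Without TP-DSC replicate 3, Cars2 was at -0.00069 against -0.062 for Cars and Iars2 at -0.013 against -0.073 for Iars. Pars2 was then at 0.21 against 0.26 for Eprs, and Wars2 at -0.92 against -0.014 for Wars. Histidine and threonine turned without TP-DSC replicate 1 (Hars2 0.51 against Hars 0.24, Tars2 0.12 against Tars -0.038). Leucine turned without DP-DSC replicate 1 (Lars2 -0.15 against Lars -0.016) and tryptophan without DP-DSC replicate 2 (Wars2 -0.30 against Wars -0.10). Per kb, the cytosolic gene was the higher of the 2 in every library for 15 of the 17 pairs. The exceptions were Lars with Lars2, where the ratio ran from 0.066 to 1.06 over the libraries, and Yars with Yars2, where it fell under 1 in TP-DSC replicate 2 alone, at 0.910.

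**Figure D5:**
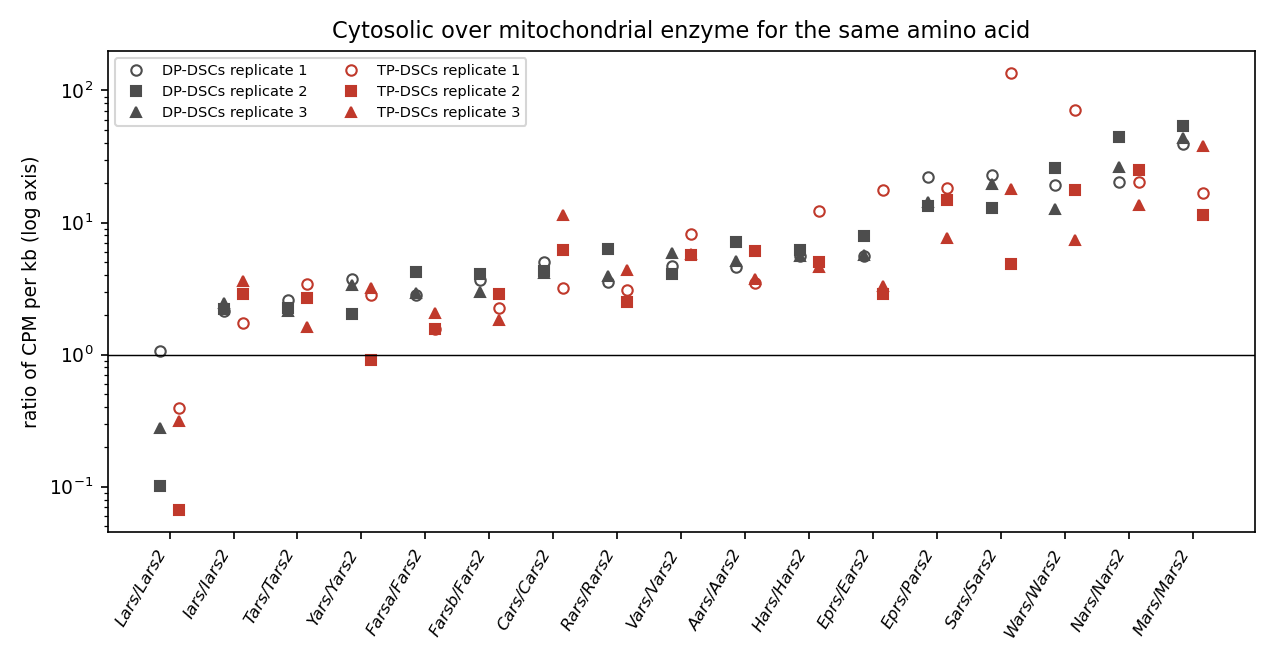
Ratio of cytosolic to mitochondrial CPM per kb (y axis, log scale) for the 17 pairs, with 1 symbol per library (DP-DSCs grey, TP-DSCs red). The 3 TP-DSC points of Farsa/Fars2, Farsb/Fars2 and Mars/Mars2 lie below the DP-DSC points, and those of Sars/Sars2 spread from 4.82 to 136.

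The genes that act beside the synthetases were taken from lists of known roles. Among 26 tested genes of the amino acid response, 14 were above 0 and 12 below, with a median log2 fold change of 0.07 and 0 called. Eif2ak4, the Gcn2 kinase, was at 45.4, 38.3 and 34.4 CPM in DP-DSCs and at 19.7, 36.0 and 27.3 CPM in TP-DSCs. Its groups did not overlap after TMM scaling but did as unscaled CPM, and the log2 fold change was -0.54 ± 0.32 (SE; edgeR adjusted p = 0.999). Ddit3, the stress-induced factor Chop, was at 17.7, 9.24 and 10.4 CPM in DP-DSCs and at 37.3, 10.05 and 29.8 CPM in TP-DSCs. TP-DSC replicate 2 stayed at the DP-DSC level, and the log2 fold change was 1.04 ± 0.65 (SE; edgeR adjusted p = 0.999). Stc2, a secreted glycoprotein, was at 0.44 ± 0.27, and Psat1, an enzyme of serine synthesis, at 0.30 ± 0.23. Amino acid transporters were below 0 in 9 of 11 tested, with a median of -0.11 (-0.10 within submission 3840 and -0.19 within 4140) and 0 called. Slc3a2, the heavy chain shared by several transporters, was at 303, 226 and 229 CPM in DP-DSCs and at 201, 166 and 217 CPM in TP-DSCs (log2 fold change -0.40 ± 0.22, SE). Slc38a1, Slc1a5 and Slc1a4, carriers of neutral amino acids, were at -0.29 ± 0.32, -0.22 ± 0.33 and -0.27 ± 0.43.

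Downstream of charging, the 7 cytosolic elongation genes were all below 0, with a median of -0.24 and 0 called, and all had overlapping groups. Their median difference was 0.02 within submission 3840 and -0.25 within 4140. Eef2k, the kinase that restrains elongation factor Eef2, was at -0.32 ± 0.19, Eif5a at -0.24 ± 0.20, Eef1g at -0.26 ± 0.28 and Eef2 itself at -0.30 ± 0.36 (SE; edgeR adjusted p = 0.999 for each). Of 12 tested mitochondrial translation genes, 9 were above 0 and 0 were called, with a median of 0.13, which was 0.35 within submission 3840 and -0.24 within 4140. Tsfm, the mitochondrial elongation factor Ts, was at 34.4, 57.8 and 40.3 CPM in DP-DSCs and at 55.8, 102 and 66.0 CPM in TP-DSCs. Its groups did not overlap after TMM scaling but did as unscaled CPM, and the log2 fold change was 0.74 ± 0.29 (SE; edgeR adjusted p = 0.683). Guf1, a mitochondrial translation GTPase, was at 0.69 ± 0.29, Lrpprc at 0.22 ± 0.17 and Tufm, the partner of Tsfm, at -0.32 ± 0.29.

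Genes for editing, charging and related steps were split, with 8 of 14 tested above 0 and a median of 0.08. Aarsd1, a free-standing alanyl editing protein, was at 38.7, 41.0 and 34.2 CPM in DP-DSCs and at 23.4, 28.0 and 12.6 CPM in TP-DSCs, with no overlap. Its log2 fold change was -0.84 ± 0.40 (SE; edgeR adjusted p = 0.957). Tarsl2, a second cytosolic threonyl enzyme that is not among the members, was at -0.51 ± 0.41 and Dtd1 at 0.27 ± 0.35.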

How the data were processed

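RNA of 3 samples per subpopulation was extracted with Trizol and made into stranded polyA-selected libraries, per the labels' protocols. The authors deposited raw read counts per gene symbol, 1 table per library. Processing with STAR 2.7.3a, Partek, DESeq2 3.5 and build mm10 is named in the submitters' notes. Which tool counted, and with which strand setting, is not given in the sources used here, so reads of overlapping genes may have been split or lost. The rows for reads in no gene (14.1 to 20.3% of reads) and ambiguous reads (1.09 to 1.86%) stayed out of library sizes and tests.

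CPM was computed from the count and the sum of gene rows of its library. Counts were tested in R 4.3.3 with edgeR 4.0.16 (filterByExpr with minimum count 10 and minimum total 15, TMM factors, quasi-likelihood F test on group alone, Benjamini-Hochberg adjustment at 0.05 over all 11925 genes). The standard error is the size of the log2 fold change over the square root of F, and intervals use the t quantile of the fit. Differences within a submission are between mean log2 CPM (prior count 2). TMM is edgeR's trimmed-mean library scaling. Statements that groups do not overlap use TMM-scaled CPM unless they say unscaled. The fit was tested on simulated data, with the outcome not reported here. A count of 0 genes called does not show that levels were equal. Alternatives were DESeq2 1.42.0 and limma-voom (limma 3.58.1), other size factors and filters, a block for the submission number, the 4 libraries of submission 4140 by themselves, and each library left out.

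Groups were taken from the labelled subtype of the cells. Replicate numbers only name libraries, in accession order, and pair none. Nothing beyond the word independent says how the samples were separated. The p-values set the difference between groups against the spread between these samples, which all came from the same organoid line. Replicate libraries differed far beyond counting noise (chi-square of 112.2 to 306.1 per degree of freedom over genes), so none was the same library counted again. This does not show that the samples were independent.

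The members and all gene lists were chosen with earlier results of these data known. Values by library are given for the 6 genes of each class with the smallest p and the 2 highest and 2 lowest per kb, and for up to 4 genes of each list by p (some genes that this takes are not reported here); Sars2 and others given beyond this were chosen after their values were seen. Lengths and gene coordinates are from GENCODE M21 (GRCm38, the assembly of mm10), promoters from RefSeq.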

Additional observations from a re-analysis of the deposited data

How the results depend on the processing

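No member was called under any alternative. The count of genes called was 0 except with DESeq2 (93), which left 360 adjusted p-values unset. The mitochondrial median log2 fold change was 0.17 with limma-voom and ran from -0.025 to 0.35 with 1 library left out; the cytosolic median ran from -0.10 to 0.019. Of 360 member values under alternatives that kept all libraries or 1 submission, 17 changed sign. The values that changed sign were those of Qars (0.0021 with DESeq2 size factors, 0.0021 with DESeq2, 0.012 over genes with reads in all 6 libraries), Iars, Lars and Tars (-0.016, -0.0016 and -0.0095 with upper-quartile factors), Iars and Tars without a filter (-0.015 and -0.011), Sars2, Tars and Yars2 with limma-voom (-0.75, -0.0088 and -0.29), Sars2 with the submission number as a block (-0.22), and Lars, Tars, Tars2, Vars and Wars2 in submission 4140 alone (-0.040, -0.084, 0.0059, 0.020 and 0.22). With 1 library left out, 30 of 216 member values changed sign. Over both kinds of alternative 19 members kept their sign. For the members that did not, the ranges that follow are those with 1 library left out. The log2 fold changes ran from -0.21 to 0.072 for Aars, -0.062 to 0.23 for Cars, -0.015 to 0.25 for Dars, -0.29 to 0.12 for Farsb, -0.088 to 0.51 for Hars2, -0.073 to 0.063 for Iars, -0.10 to 0.17 for Lars, -0.56 to 1.43 for Lars2, -0.13 to 0.075 for Nars, -0.098 to 0.049 for Qars, -0.31 to 0.039 for Rars, -1.25 to 0.86 for Sars2, -0.077 to 0.13 for Tars, -0.25 to 0.12 for Tars2, -0.28 to 0.021 for Vars, -0.92 to 0.25 for Wars2 and -0.59 to 0.37 for Yars2. The cause of these changes was not tested. The median of all genes itself moved by more than 0.1 with limma-voom (to -0.15), without a filter (to -0.16) and without TP-DSC replicate 1 (to -0.11). No paired analysis was possible because the replicate numbers follow the order of deposit; the submission number, which both groups share, was the block above.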
